A study of Rattus norvegicus with 5 samples.

Results

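Receptors for adrenaline and noradrenaline, serotonin, histamine, dopamine, acetylcholine (the muscarinic type) and adenosine were examined as 38 genes of the 33014 in the gene-level table, chosen by symbol alone. They comprised 9 adrenergic, 12 serotonin, 4 histamine, 5 dopamine, 5 muscarinic and 3 adenosine receptor genes; Adora3 was not analysed here. RNA came from 5 cultures of dissociated dorsal root ganglia (DRG) of wild-type Sprague Dawley rats at postnatal day 10, taken as whole wells with every cell type they contained. Cells at 5000 per well received PBS, a vehicle, after 1 day, were kept for 8 days, and 3 wells were pooled for each library. The labels are alike for all 5 libraries, which therefore make up a single group with no condition to compare. The labels describe ganglia of 1 litter of 10 pups and do not say that libraries came from separate animals or preparations, so the p-values reflect how far these libraries differ among themselves, a spread that could be technical.

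All these receptors cross the membrane 7 times and act through G proteins. Receptors coupled to Gi lower cyclic AMP and, in sensory neurons, commonly reduce calcium entry and transmitter release. Receptors coupled to Gs raise cyclic AMP, and those coupled to Gq release calcium from stores through phospholipase C; both actions can make sensory neurons more excitable. In the ganglion, serotonin, histamine and adenosine are known as mediators set free by tissue damage, platelets and mast cells, and noradrenaline comes from sympathetic fibres.

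Depth ran between 21596608 and 27913098 estimated reads. Per kb of effective length, 1 TPM stood for 13.3 to 17.4 reads, so genes far below 1 TPM rest on a few reads. TPM, the share of a transcript among 1000000, is corrected for transcript length, which allows levels of different genes to be compared. Neuronal markers stood at a summed 8603 to 9018 TPM (10 of 10 genes detected) and Schwann cell markers at 6730 to 7727 TPM (8 of 8). Satellite glia markers stood at 8333 to 10930 TPM (5 of 5) and fibroblast markers at 1695 to 1739 TPM (6 of 6). Most of the satellite glia sum was Apoe, at a mean of 9129 TPM. The other genes of that list had means between 29.4 TPM for Kcnj10 and 244 TPM for Glul. Macrophage markers summed to 1200 to 1901 TPM (8 of 8), and mural and smooth muscle markers to 209 to 382 TPM (5 of 6). In bulk RNA, fewer cells of a type and less RNA per cell cannot be told apart, and the cell type behind a receptor transcript is not shown.

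The 300-base promoter windows are printed for 4 receptor genes, picked by name among the genes detected in every library. They are Htr1b and Htr2b for serotonin, Adora2b for adenosine and Chrm4 for muscarinic receptors. Each window runs from 250 bases before to 50 bases after the annotated start in build GRCr8, 5′ to 3′ on the strand of the gene. The positions are chr8:91414766-91415065 (minus strand) for Htr1b, chr9:94204038-94204337 (minus strand) for Htr2b, chr10:47439462-47439761 (plus strand) for Adora2b and chr3:98348830-98349129 (plus strand) for Chrm4. Capitals mark GGGCGG and CCAAT on either strand, the letters of a GC box and a CCAAT box.
Htr1b: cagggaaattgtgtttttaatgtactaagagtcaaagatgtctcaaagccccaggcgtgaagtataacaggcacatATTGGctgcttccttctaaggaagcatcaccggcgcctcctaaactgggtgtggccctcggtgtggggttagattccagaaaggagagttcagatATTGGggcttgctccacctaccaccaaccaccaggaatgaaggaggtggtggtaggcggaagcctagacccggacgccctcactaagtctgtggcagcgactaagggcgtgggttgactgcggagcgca
Htr2b: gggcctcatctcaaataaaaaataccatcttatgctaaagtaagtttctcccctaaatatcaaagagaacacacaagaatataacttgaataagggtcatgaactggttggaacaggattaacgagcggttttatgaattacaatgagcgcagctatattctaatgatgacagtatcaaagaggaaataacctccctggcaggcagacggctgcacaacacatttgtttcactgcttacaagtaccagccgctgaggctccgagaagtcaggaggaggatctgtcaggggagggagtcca
Adora2b: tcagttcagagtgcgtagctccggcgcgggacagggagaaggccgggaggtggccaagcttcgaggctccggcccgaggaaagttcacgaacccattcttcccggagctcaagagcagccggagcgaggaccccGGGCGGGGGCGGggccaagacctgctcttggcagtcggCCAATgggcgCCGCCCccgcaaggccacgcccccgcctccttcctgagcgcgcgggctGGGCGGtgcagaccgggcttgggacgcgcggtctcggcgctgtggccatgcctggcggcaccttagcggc
Chrm4: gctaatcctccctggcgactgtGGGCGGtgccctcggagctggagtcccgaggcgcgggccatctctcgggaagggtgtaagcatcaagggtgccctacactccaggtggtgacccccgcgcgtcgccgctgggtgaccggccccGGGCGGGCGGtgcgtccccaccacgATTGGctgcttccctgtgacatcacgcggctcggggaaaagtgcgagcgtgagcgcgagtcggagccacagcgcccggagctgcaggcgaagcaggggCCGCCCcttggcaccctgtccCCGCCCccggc
The Adora2b and Chrm4 windows were 72.0% G or C and held 4 and 5 GGGCGG matches with 1 CCAAT match each, counting overlapping matches. The Htr1b window, at 53.7% G or C, held 2 CCAAT matches and no GGGCGG, and the Htr2b window, at 43.3% G or C, held neither. Among the 29 receptor genes with a window, 15 held GGGCGG, against 33.1% of the 33469 windows in the table. Both remaining motifs were present in fewer members: 9 held CCAAT (37.5% of all windows) and 1, Hrh4, held TATAAA, the TATA box (14.2% of all windows). Of the 8 windows of genes detected in every library, 3 held GGGCGG and 3 held CCAAT. A match of letters is not evidence of a bound site.

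A minority of the receptor genes were expressed at 1 TPM or more. In all, 11 of 38 genes (28.9%) reached 1 TPM in every library, where 41.3% of all genes did. The median receptor gene stood at 0.280 TPM, and the median of all genes at 0.297 TPM. A test of each gene against 1 TPM (limma on log2(TPM + 0.1), Benjamini-Hochberg adjustment over all 24485 genes with reads) placed the same 11 above, beside 55.9% of tested genes. It placed 24 of the 37 tested receptor genes below 1 TPM, beside 39.7% of tested genes, and left 2 on neither side, Drd2 among them. Drd5 had 0 reads in every library and was not tested. By family, the detected genes were 4 of 12 serotonin, 3 of 3 adenosine, 3 of 9 adrenergic and 1 of 5 muscarinic receptor genes, with none of 5 dopamine and none of 4 histamine receptor genes.

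**Figure D1:**
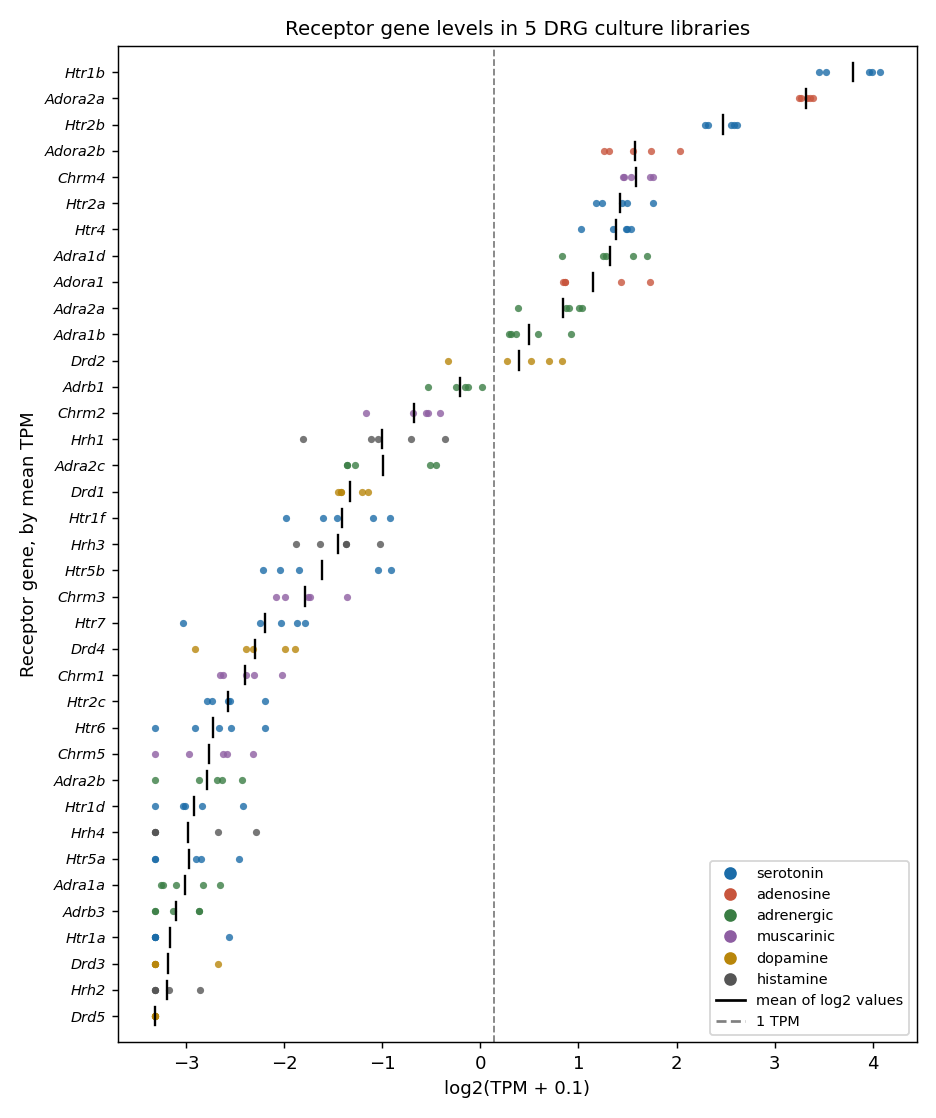
Level of 37 receptor genes in the 5 libraries (points, log2(TPM + 0.1), coloured by ligand family), ordered by mean TPM, with the mean of the log2 values as a bar and 1 TPM as a dashed line. Htr1b, Adora2a and Htr2b stand to the right of all others, 11 genes lie wholly to the right of the line, and Drd5 is at 0 in every library.

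The 38 genes together summed to 54.8 ± 2.34 TPM per library (SD, n = 5), and 3 genes held 53.8% ± 2.23 of that sum. Serotonin receptor genes held 46.6% ± 3.11, adenosine receptor genes 27.5% ± 2.18, adrenergic 14.5% ± 0.665, muscarinic 6.94% ± 0.579, dopamine 3.08% ± 0.60 and histamine 1.35% ± 0.305. The order of the leading families turned with named transcripts alone, where serotonin genes held 27.1% and adenosine genes 37.5% of the TPM. The 27 genes not detected in every library held 12% ± 0.838. Grouped by the G protein each receptor is known to use, Gi-coupled genes held 44.1% ± 3.45, Gs-coupled genes 32.6% ± 2.18 and Gq-coupled genes 23.3% ± 1.42. In every library the Gi sum exceeded the Gs sum (log2 ratio 0.44 ± 0.21) and the Gs sum exceeded the Gq sum (0.48 ± 0.05). The exact two-sided sign-flip permutation test gave p = 0.063 for both, the smallest value that 5 libraries allow, so it cannot reach 0.05. Both orders depend on the summary. With named transcripts alone, which leave out most of the TPM of Htr1b and Htr2b, Gi over Gs was -0.23, and with counts of reads per 1000000 (CPM) in place of TPM, where transcript length also enters and Adora2a is incomplete, Gs over Gq was -0.11.

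**Figure D2:**
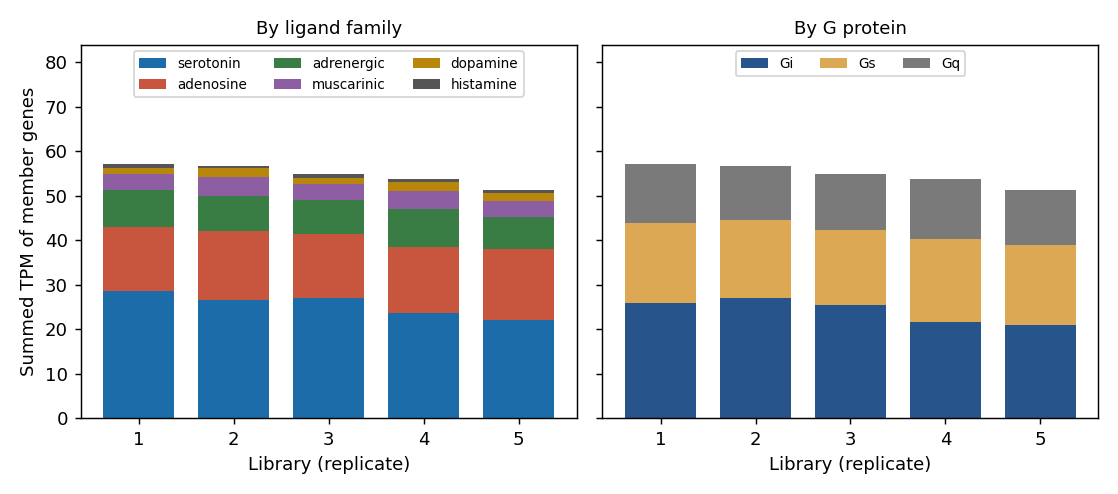
Summed TPM of the receptor genes in each library, stacked by ligand family (left) and by G protein (right). The total runs between 51.4 and 57.2 TPM, and the serotonin and Gi blocks are smaller in replicates 4 and 5 than in replicates 1 to 3.

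Serotonin receptor genes were led by Htr1b, the Gi-coupled receptor through which triptan migraine drugs act. Htr1b had 16.8, 15.5, 15.9, 10.9 and 11.4 TPM in replicates 1 to 5, with a mean of 14.1 ± 2.73 TPM (limma adjusted p = 4.98e-09 against 1 TPM, above in 5 of 5 libraries). Replicates 4 and 5 were lower than the other 3, with no value between 11.4 and 15.5 TPM. Htr1b held 25.6% ± 4.14 of the summed TPM of all 38 genes and 54.7% ± 5.70 of that of the serotonin receptor genes.

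The drop in replicates 4 and 5 was smaller in reads than in TPM. A 1161-base transcript received 78.9, 71.3, 88.1, 48.9 and 26.2 reads in replicates 1 to 5, equal to 5.72, 5.54, 6.80, 3.16 and 2.18 TPM. A 4963-base transcript, assigned to the gene by matching values, carried most reads, at 739, 633, 574, 596 and 526, equal to 10.2, 9.37, 8.44, 7.29 and 8.40 TPM. All reads of the gene came to 36.1, 32.0, 30.2, 24.7 and 28.5 CPM, a CV (SD over mean) of 13.9%, against 19.4% in TPM. Replicates 4 and 5 were the lowest on this scale too, but replicate 5 lay close to replicate 3 and the gap was not seen. The SD in CPM was 3.76 times the SD that counting reads gives. Mural and smooth muscle markers summed to 382, 361, 290, 293 and 209 TPM in the same libraries. Like the CPM of Htr1b, these sums were highest in replicates 1 and 2. The sum was lowest in replicate 5, however, and the CPM of Htr1b in replicate 4. Pdgfrb, of the same list, was lowest in replicate 1, at 33.3 TPM. The part of these cells in the spread was not tested.

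Htr2b, a Gq-coupled receptor also known from fibroblasts and heart valves, had 5.92, 4.79, 4.91, 5.78 and 6.01 TPM, a mean of 5.48 ± 0.586 (limma adjusted p = 6.38e-09 against 1 TPM, above in 5 of 5 libraries). A 2763-base transcript held between 86.4% and 94.6% of it. The gene overlaps Psmd1, a proteasome subunit gene at 94.8 ± 2.00 TPM, in the GRCr8 annotation. The strand setting of the quantification is not known here, so reads of the overlapping genes may not be told apart and the level of Htr2b is uncertain. Htr1b exceeded Htr2b in every library (log2 ratio 1.33 ± 0.39, a 2.51-fold difference; exact sign-flip p = 0.063), without overlap of the values. With named transcripts alone, which lack the 2763-base one, the log2 ratio was 3.13.

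Htr2a, the Gq-coupled receptor known for platelet activation and psychedelic drug action, had 2.26, 2.63, 2.72, 3.29 and 2.16 TPM (mean 2.61 ± 0.447). Htr4, a Gs-coupled receptor known from the gut, had 2.71, 2.8, 2.46, 2.71 and 1.93 TPM (mean 2.52 ± 0.354). Their order differed between libraries, and Htr2a was higher in 3 of 5 (log2 ratio 0.05 ± 0.21; exact sign-flip p = 0.625). That ratio was -4.12 with named transcripts alone, which lack most of Htr2a, and 0.56, with Htr2a higher in 5 of 5 libraries, in CPM with matched transcripts. Htr1b exceeded Htr2a 5.2-fold and Htr4 5.37-fold in TPM, in 5 of 5 libraries each. With CPM of named transcripts, however, Htr1b over Htr4 was -0.058 and Htr1b over Htr2a 5.10 (log2). Named transcripts lack the 4963-base one of Htr1b and most of Htr2a. In CPM with matched transcripts, the log2 ratio of Htr1b was 2.55 over Htr4 and 1.99 over Htr2a. In Htr4, reads were shared between a 2593-base transcript with 44.8% to 61.2% of the TPM and a 4633-base transcript with the rest, so neither dominated.

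The other 8 serotonin receptor genes were below 1 TPM in every library. Htr1f, the Gi-coupled target of lasmiditan, stood at 0.288 ± 0.109 TPM and Htr5b, a rodent receptor, at 0.25 ± 0.147 TPM. Htr7, a Gs-coupled receptor, was at 0.128 ± 0.0664 TPM, and Htr2c, Htr6, Htr1d, Htr5a and Htr1a lay between 0.0139 and 0.0701 TPM. Htr1d, another triptan target, rested on 5 reads and Htr1a, the receptor of raphe neurons, on 1 read over the 5 libraries.

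All 3 adenosine receptor genes were detected, with the Gs-coupled receptor Adora2a highest. Adora2a, known from immune cells and striatal neurons, had 9.40, 9.99, 9.57, 10.4 and 10.2 TPM, a mean of 9.92 ± 0.424 (limma adjusted p = 1.2e-11 against 1 TPM, above in 5 of 5 libraries). Its CV of 4.27% was the lowest of the 37 genes with reads. A 2491-base transcript held between 47.4% and 93.3% of the gene level, so its share varied much more than the sum. An average of 1.86 TPM of the gene lay in transcripts that were not found, so the source of that part is not known. Adora2a held 65.9% ± 2.13 of the adenosine receptor TPM and stood below Htr1b in every library (log2 of Htr1b over Adora2a 0.48 ± 0.35; exact sign-flip p = 0.063). The values of the pair came close in replicate 4, with 10.9 TPM for Htr1b and 10.4 TPM for Adora2a.

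Adora2b, the Gs-coupled receptor of low adenosine affinity, had 3.24, 2.29, 2.37, 2.84 and 3.99 TPM (mean 2.95 ± 0.696). It was highest in replicate 5 and lowest in replicate 2. Macrophage markers summed to 1599, 1200, 1806, 1774 and 1901 TPM in the same libraries. They were also highest in replicate 5 and lowest in replicate 2, but in replicates 1, 3 and 4 ran in the opposite order to Adora2b. Satellite glia markers, at summed levels of 8418, 8333, 10157, 10349 and 10930 TPM, were highest and lowest in the same libraries too. Most of that sum was Apoe, and in replicate 1 it was near its lowest while Adora2b was not. Fabp7 and Glul were also lowest in replicate 2 but highest in replicate 3. Kcnj10 was highest in replicate 2, at 32.9 TPM, and Cdh2 was lowest in replicate 1, at 58.3 TPM. The part of either group was not tested. The SD of Adora2b in CPM was 2.01 times the counting SD. Adora2a exceeded Adora2b 3.35-fold, in 5 of 5 libraries (log2 1.74 ± 0.31; exact sign-flip p = 0.063).

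Adora1, the Gi-coupled receptor studied for pain relief by adenosine, had 1.69, 3.21, 2.60, 1.72 and 1.71 TPM (mean 2.19 ± 0.689). Replicates 2 and 3 stood apart from the other 3 in TPM. In CPM the gene had 5.04, 6.01, 6.22, 5.22 and 4.96, a CV of 10.7% against 31.5% in TPM, and 1.23 times the counting SD. A 1073-base transcript was assigned 16.2 reads in replicate 2 and 7.04 in replicate 3 and none in the other libraries, which in TPM amounted to 1.40 and 0.603. Adora2a exceeded Adora1 4.53-fold in TPM, in 5 of 5 libraries (log2 2.18 ± 0.42). In CPM, which lack part of Adora2a, the log2 ratio was 1.36 with named transcripts and 0.96 with matched ones added.

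**Figure D3:**
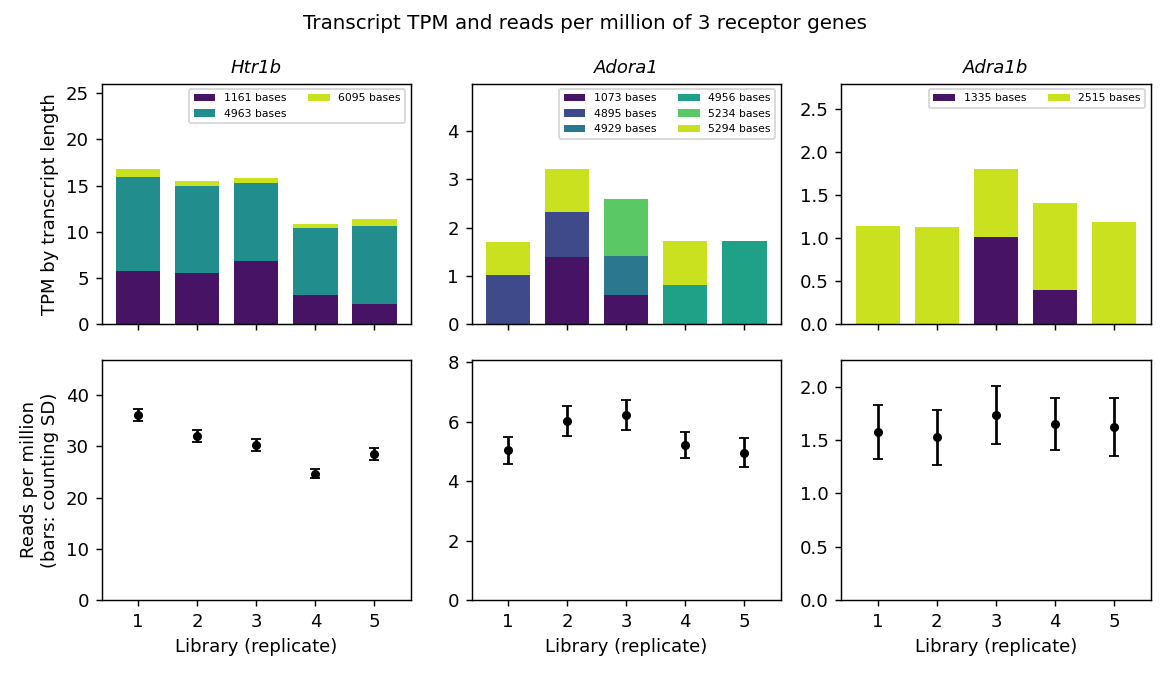
Top, TPM of the transcripts of Htr1b, Adora1 and Adra1b in each library, stacked and coloured by transcript length; bottom, all reads of the gene in CPM, with the counting SD as bars. The shortest transcript is largest in the libraries with the highest TPM of Adora1 and Adra1b, while CPM run between 4.96 and 6.22 for Adora1 and between 1.52 and 1.73 for Adra1b.

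The 3 adrenergic receptor genes detected in every library were of the alpha type. Adra1d, a Gq-coupled receptor of vascular smooth muscle, had 3.16, 2.84, 1.68, 2.28 and 2.33 TPM (mean 2.46 ± 0.567; limma adjusted p = 4.30e-05 against 1 TPM, above in 5 of 5 libraries). It has 1 transcript in the files, and its SD in CPM was 2.3 times the counting SD. The mural and smooth muscle sums of 382, 361, 290, 293 and 209 TPM were, like Adra1d, highest in replicates 1 and 2, but lowest in replicate 5 where Adra1d was not; their part was not tested. Within that list, Acta2, Tagln, Myh11 and Cnn1 were each highest in replicates 1 and 2, as the sum was. Pdgfrb differed in replicate 1, where it was lowest, at 33.3 TPM, and Adra1d was highest. In replicate 2 Pdgfrb was at its highest, at 39.1 TPM. Rgs5, a pericyte marker of that list, was at 0 in replicates 2 and 4 and highest in replicate 5.

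Adra2a, the Gi-coupled receptor of clonidine and dexmedetomidine, had 1.2, 1.73, 1.91, 1.95 and 1.77 TPM (mean 1.71 ± 0.299; limma adjusted p = 0.000632, above 1 TPM in 5 of 5 libraries). Replicate 1 was the lowest, and Adra1d, at its highest there, exceeded Adra2a in 4 of 5 libraries (log2 0.48 ± 0.56; exact sign-flip p = 0.125). Adra1b, another Gq-coupled receptor, had 1.14, 1.13, 1.80, 1.40 and 1.18 TPM (mean 1.33 ± 0.285; limma adjusted p = 0.0260, above 1 TPM in 5 of 5 libraries). The call for Adra1b was lost without replicate 3 or without replicate 4, the libraries in which a 1335-base transcript received 15.6 and 7.4 reads; it was assigned to the gene by matching values. In CPM the SD of Adra1b was 0.306 times the counting SD.

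Adrb1, the cardiac beta receptor, averaged 0.772 ± 0.118 TPM (limma adjusted p = 0.0308, below 1 TPM in 5 of 5 libraries). That call was lost when replicate 1, 2, 4 or 5 was left out. Adra2c, at 0.425 ± 0.176 TPM, Adra2b, Adra1a and the fat-cell receptor Adrb3 were lower, and Adrb3 rested on 3 reads in all.

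Among muscarinic receptor genes only the Gi-coupled Chrm4 was detected in every library. It had 2.67, 3.22, 2.65, 3.28 and 2.8 TPM, a mean of 2.92 ± 0.305 (limma adjusted p = 3.72e-07 against 1 TPM, above in 5 of 5 libraries). Its 2768-base transcript held between 45.4% and 66.1% of the level and a 3529-base transcript the rest. Chrm4 overlaps Mdk, the growth factor gene midkine at 133 ± 16.5 TPM, in the GRCr8 annotation, so its level is uncertain without the strand setting. Chrm2, the Gi-coupled receptor of the heart, was at 0.537 ± 0.116 TPM, and the Gq-coupled genes Chrm3, Chrm1 and Chrm5 were at 0.194 ± 0.0598, 0.0917 ± 0.0353 and 0.0512 ± 0.0384 TPM. Chrm5 also overlaps a gene of higher level, Aven at 28.0 ± 2.41 TPM.

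Dopamine and histamine receptor genes were at or under about 1 TPM. Drd2, the Gi-coupled target of antipsychotic drugs, had 1.10, 1.53, 0.696, 1.68 and 1.33 TPM (mean 1.27 ± 0.385). It passed 1 TPM in 4 of 5 libraries and did not differ from 1 TPM beyond the spread (limma adjusted p = 0.194), but was called above 1 TPM without replicate 3. Its SD in CPM was 2.08 times the counting SD. Drd1, a Gs-coupled receptor, was at 0.300 ± 0.0406 TPM, Drd4 at 0.109 ± 0.0539 TPM, and Drd3 rested on 1 read. Drd5 had 0 reads in all 5 libraries, which allows up to 0.0344 TPM when 3 reads over the libraries are taken as the limit, for counting error only.

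Hrh1, the Gq-coupled receptor blocked by common antihistamines and a known itch receptor, was the highest histamine receptor gene. It had 0.511, 0.185, 0.681, 0.363 and 0.385 TPM (mean 0.425 ± 0.184; limma adjusted p = 0.00127, below 1 TPM in 5 of 5 libraries) from 77.0 reads in all. Hrh3, a Gi-coupled receptor on nerve terminals, was at 0.271 ± 0.0824 TPM. Hrh4, of immune cells, and Hrh2, of the stomach, rested on 3 reads each and were at 0 in 3 libraries each.

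In the order of mean TPM, Htr1b, Adora2a, Htr2b and Adora2b did not overlap with their neighbours among these 4. From Adora2b down to Adra1b the ranges of neighbours overlapped. Between Adora2b and Chrm4 the log2 ratio was -0.01 ± 0.39 (exact sign-flip p = 1), and the 5 further pairs from Chrm4 to Adra2a gave exact sign-flip p-values of 0.25 to 0.75. Adra2a exceeded Adra1b in 5 of 5 libraries (log2 0.34 ± 0.25; exact sign-flip p = 0.063) although their ranges overlapped. Htr1b over Adora2a and Htr2b over Adora2b turned negative when unnamed transcripts were left out, at -0.63 and -2.35 in summed TPM.

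Of the 23 genes with complete reads and at least 20 of them in all, the median ratio of the SD to the counting SD of CPM was 1.31. The ratio was under 1 for 8 genes and above 2 for 4, namely Htr1b, Adra1d, Drd2 and Adora2b. Adora2a is not among them, since part of its transcripts could not be assigned.

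**Figure D4:**
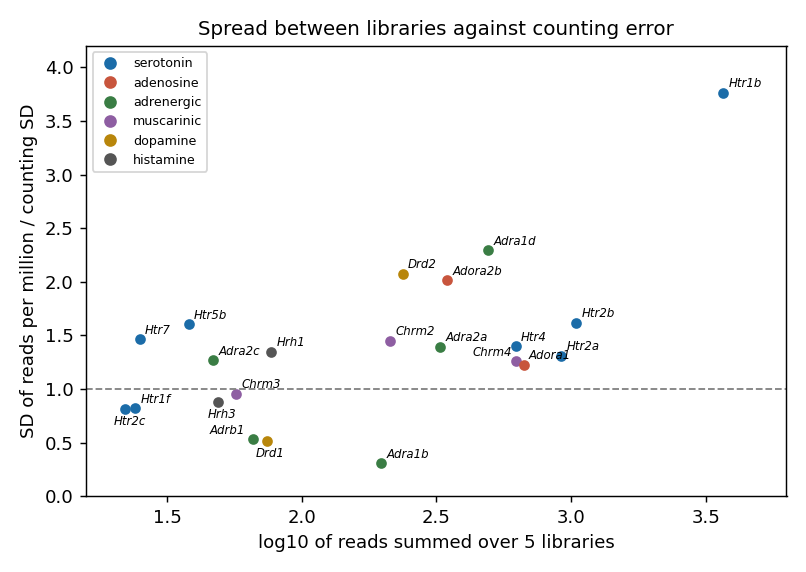
SD between libraries of CPM divided by the SD that counting error alone gives, against the log10 of reads summed over 5 libraries, for 22 receptor genes coloured by ligand family. The dashed line marks a ratio of 1; Htr1b lies highest at 3.76, followed by Adra1d at 2.3, and Adra1b lies lowest at 0.306.

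Genes that make, move and break down the ligands were described together with receptor kinases and arrestins, from 7 lists with 56 genes. Of these, 36 (64.3%) were detected, beside 41.3% of all genes. All 7 kinase and arrestin genes, which do not handle ligands, were among the 36. Enzymes that inactivate amines were detected, with Maoa at 47.4 ± 2.46 TPM and Maob at 2.86 ± 0.406 TPM; both oxidize monoamines. Of 12 uptake and breakdown genes, 5 were detected, and the sole transporter among them was Slc29a4, a low-affinity monoamine carrier, at 50.8 ± 3.47 TPM. The high-affinity transporter genes for noradrenaline, serotonin and dopamine, Slc6a2, Slc6a4 and Slc6a3, were at 0.461 ± 0.189, 0.0370 ± 0.0276 and 0.0237 ± 0.0359 TPM. The histamine methyltransferase gene Hnmt was at 0.138 ± 0.111 TPM.

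The steps of monoamine synthesis were present only in part. Of 10 catecholamine genes, 6 were detected. Th, tyrosine hydroxylase, was at 3.70 ± 1.18 TPM and the vesicular transporter gene Slc18a2 at 9.56 ± 0.793 TPM, while Ddc, which makes dopamine and serotonin from their precursors, was at 0.0713 ± 0.0365 TPM and Dbh, which makes noradrenaline, at 0.0141 ± 0.0194 TPM. The other 4 detected genes make or recycle the cofactor tetrahydrobiopterin: Gch1 at 82.9 ± 6.95, Pts at 18.0 ± 0.911, Spr at 193 ± 18.7 and Qdpr at 243 ± 4.84 TPM. The serotonin synthesis genes Tph2 and Tph1 were at 0.922 ± 0.212 and 0.227 ± 0.0202 TPM. Hdc, which makes histamine, was detected at 4.95, 6.84, 7.86, 6.08 and 6.70 TPM. The mast cell protease genes Cpa3 and Tpsab1 were at 0.0128 ± 0.0287 and 0.0424 ± 0.064 TPM, and Cma1 was at 0 in every library. Kit, a receptor of mast cells and also of other cells, was detected at 11.4 ± 0.864 TPM, so 2 of the 5 mast cell markers, Kit and Hdc, were detected.

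For acetylcholine, breakdown and choline uptake genes were detected and synthesis was not. Ache, acetylcholinesterase, was at 157 ± 9.39 TPM, Bche at 6.51 ± 0.762 TPM and the choline transporter gene Slc5a7 at 8.40 ± 0.538 TPM. Chat, which makes acetylcholine, was at 0.00804 ± 0.0110 TPM and its vesicular transporter gene Slc18a3 at 0.0644 ± 0.0440 TPM.

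Of 10 genes that form adenosine, 7 were detected, led by Entpd2, an ecto-enzyme that cleaves ATP, at 472 ± 39.6 TPM. Acp3, an acid phosphatase that makes adenosine from AMP on nociceptors, was at 27.1 ± 1.79 TPM and Nt5e (CD73), which does the same, at 6.68 ± 0.266 TPM. For uptake and breakdown, 7 of 9 genes were detected, with the purine phosphorylase gene Pnp at 171 ± 13.6, adenosine kinase Adk at 28.6 ± 1.11, adenosine deaminase Ada at 10.9 ± 1.3, and the carriers Slc29a1 and Slc29a2 at 8.65 ± 1.41 and 8.59 ± 0.830 TPM. All 7 receptor kinase and arrestin genes, which switch active receptors off, were detected, led by Arrb1 at 125 ± 2.48, Grk2 at 52.4 ± 2.25 and Grk6 at 46.3 ± 2.41 TPM.

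**Figure D5:**
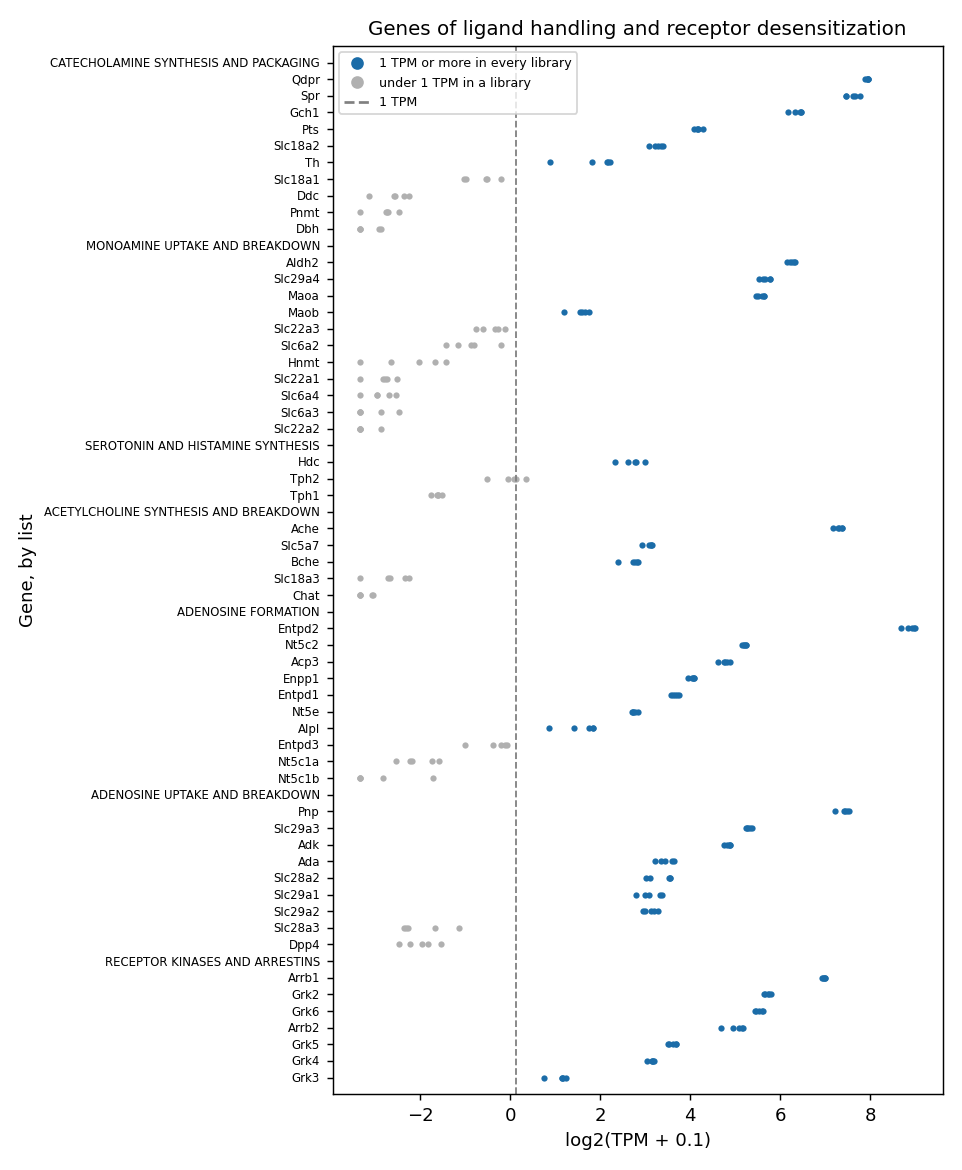
Levels of 55 genes of ligand synthesis, uptake and breakdown and of receptor kinases and arrestins in the 5 libraries (points, log2(TPM + 0.1)), grouped by list and ordered by mean TPM; blue marks genes at 1 TPM or more in every library and the dashed line marks 1 TPM. Chat, Ddc and Dbh lie far left of the line, and Entpd2 lies farthest right.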

How the data were processed

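The 5 libraries were RNA-seq of cultured rat DRG cells. Salmon 1.5.1, cutadapt 2.8, Trim Galore 0.6.6 and build mRatBN7.2 are named per the submitters' processing notes; the strand setting, order of steps and gene summing: not given in the sources used here. Deposited by the authors were TPM per gene symbol, scaled to 1000000 per library, and, per the file headers, TPM and estimated counts of reads for 98811 transcripts; levels come from the gene table. The member genes and lists were chosen with earlier results of these data known. Every receptor gene is accounted for, and values per library are given for detected genes and the highest gene of each family.

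Transcripts were named through RefSeq (GRCr8), which named 67330. Named transcripts held the full TPM of 25 receptor genes. For 12 more, 1 unnamed transcript (10 genes) or 1 pair (2 genes) equalled the missing TPM within 0.00001 in every library and was assigned to the gene; this rests on the values, not on an annotation. Of these 12, 11 then had reads within 0.1 of a whole number in every library. The missing part of Adora2a was not found. CPM are estimated counts over the library total per 1000000 reads, and counting SD is the Poisson SD at the mean rate.

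Levels were tested against 1 TPM with limma 3.58.1 (R 4.3.3, trended prior variance, two-sided, threshold 0.05), checked on simulated data. Ratios of genes are log2 of (TPM + 0.1) and were tested with an exact sign-flip permutation test over 5 libraries; 20 ratios were tested (7 within families, 10 between neighbours, 3 between G protein sums), unadjusted, since the smallest p, 0.063, cannot pass. The pseudocount of 0.1 understates ratios of low genes. Estimated counts entered no count model and were not rounded. Alternatives were other pseudocounts, detection thresholds and filters, transcript sums, CPM and leaving out each library. Single values of 1 receptor gene and 1 gene of the lists are not reported here or drawn; both are in the counts and sums.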

Additional observations from a re-analysis of the deposited data

Results flagged for a closer look

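A library was marked as standing apart when its gap to the nearest other library exceeded 0.71 of the range of the 5 values; chance marks about 1 in 20 such groups, and 3 of 82 values examined were marked. Bche was lowest in replicate 5, at 5.2 TPM. Grk3, a receptor kinase gene, was lowest in replicate 2, at 1.59 TPM. Adrenergic receptor genes held their highest share of the summed receptor TPM in replicate 4, at 15.6%.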

How the results depend on the processing

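No pairing of samples between conditions was possible because all libraries form 1 group. The ratios of genes were taken within each library. The 11 receptor genes detected became 6 at 2 TPM and 7 with named transcripts; the count was 14 at 0.5 TPM, 13 by the mean over libraries and 11 to 13 with a library left out. The count above 1 TPM was 11 with either other pseudocount, the filter and no trend in the prior variance, and 10 to 11 with a library left out; it was not run on transcript sums or CPM. Without replicate 3 Drd2 took the place of Adra1b. The 24 genes below 1 TPM became 11 when genes under a mean of 0.1 TPM were left out, which leaves 24 to test, and 22 to 23 with a library left out. Named transcripts alone leave out most TPM of Htr1b, Htr2b and Htr2a, so the summed 54.8 TPM became 34.1. They gave shares of 39.5% for Gi, 46.5% for Gs, 13.9% for Gq, 37.5% for adenosine, 22.4% for adrenergic, 4.24% for dopamine and 27.1% for serotonin genes. CPM of named transcripts gave 40.0%, 44.3%, 15.7%, 37.4%, 21.8%, 4.80% and 24.7% for the same groups, and 9.79% for muscarinic genes. CPM with matched transcripts, an alternative chosen after seeing the data, gave 52.0% for Gi, 23.1% for Gs, 24.9% for Gq, 20.6% for adenosine, 11.4% for adrenergic, 8.05% for muscarinic and 55.9% for serotonin genes; Adora2a is incomplete there, and long transcripts weigh more.

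Log2 ratios with named transcripts were 1.41 for Adora2a over Adora2b, 3.13 for Htr1b over Htr2b, 5.10 for Htr1b over Htr2a, 0.98 for Htr1b over Htr4, -0.23 for Gi over Gs, 1.48 for Gi over Gq and 1.72 for Gs over Gq. CPM of named transcripts gave 1.36 for Adora2a over Adora1, 2.37, 5.10 and -0.058 for Htr1b over Htr2b, Htr2a and Htr4, and -0.15, 1.35 and 1.49 for the G protein sums in that order. With matched transcripts, CPM gave 0.96 for Adora2a over Adora1, 1.81 for Htr1b over Htr2b, 1.17 for Gi over Gs and -0.11 for Gs over Gq. With a pseudocount of 1, Htr1b over Htr4 was 2.08. Between neighbours, Htr1b over Adora2a turned to -0.63 and -1.13, and Htr2b over Adora2b to -2.35 and -1.61, with named transcripts as TPM and as CPM. Neighbours whose order already differed between libraries changed sign too. With named transcripts as TPM and as CPM, Htr2a over Htr4 was -4.12 and -5.16 and Adora2b over Chrm4 0.84 and 0.21. Adora1 over Adra2a was -0.03 as TPM, and Adra1d over Adora1 -0.06 as CPM, of named transcripts. CPM with matched transcripts gave -0.54 for Chrm4 over Htr2a and -0.45 for Adra1d over Adora1. With a library left out, Adora2b over Chrm4 ran between -0.14 and 0.10, Htr2a over Htr4 between -0.01 and 0.12 and Htr4 over Adra1d between -0.06 and 0.13. Beyond the missing transcripts, the cause was not tested. Depth limits the genes under 0.1 TPM, which rest on at most 22.0 reads in all.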

Other observations

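Genes that mark neurons other than sensory ones were low in all libraries. Among 5 autonomic neuron markers, none was detected, and they summed to between 0.680 and 1.40 TPM; the noradrenergic genes Dbh and Slc6a2 belong to that list. Of 5 genes of central transmitter neurons, none was detected, with sums between 0.776 and 1.41 TPM, most of it from Tph2. Of 5 endothelial markers, 2 were detected, with Cdh5 at 18.6 ± 1.05 TPM and Tek at 4.9 ± 0.597 TPM, while Cldn5 was at 0.0967 ± 0.0695 TPM.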
